A study of Mus musculus with 2 samples.

Results

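Mir219a-1, Mir219a-2 and Mir338 are the mouse genes for miR-219 and miR-338, microRNAs known best from oligodendrocytes, the glia that make myelin in the brain and spinal cord. They were taken by gene identity, as the rows whose Ensembl identifier belongs to these symbols in the GENCODE annotation of GRCm38. Earlier results of these data were known when they were chosen. They made up 3 of the 1973 miRNA genes counted, and 3 of 3 had at least 10 sense counts in both libraries. The libraries were 2 microRNA-seq libraries of neural tube, the tissue that gives rise to brain and spinal cord, from embryonic day 14.5 mice (B6NCrl strain, no mutation or treatment named in the labels). The labels give a size range under 30 bases. Replicate 1 came from pup 1 of dam 1 and replicate 2 from pup 1 of dam 2, and both libraries form 1 group. The labels call each sample a single neural tube and also give pooled sexes, so whether a library holds 1 embryo is unsettled. What could be described was the level of each gene, its other-strand reads and the gap between the libraries of 2 litters.

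A miRNA gene is transcribed as a hairpin, from which a mature strand of the 5′ arm (5p) or the 3′ arm (3p) is cut. Bases 2 to 8 of the mature strand, the seed, pair with target mRNAs and lower their output. In mouse and rat, miR-219 and miR-338 rise as oligodendrocyte precursors leave the cell cycle and differentiate. miR-219 represses the growth factor receptor gene Pdgfra and the transcription factor gene Sox6, and miR-338 represses Sox6 and Hes5, which hold precursors in an undifferentiated state. Both are also known outside this lineage. miR-338 has been studied in axons of rat neurons, and miR-219 acts in neural progenitors of zebrafish.

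The mature sequences below, from RefSeq on GRCm38.p6, show the products listed there for the genes and which one their copies share. Capitals mark the seed. All 3 genes were matched in that table. For Mir219a-2 it lists the 5p product only, so a 3p strand of this gene is not among the sequences shown.
miR-219a-5p (Mir219a-1 and Mir219a-2): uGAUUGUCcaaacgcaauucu
miR-219a-1-3p (Mir219a-1): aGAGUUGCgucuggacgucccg
miR-338-3p (Mir338): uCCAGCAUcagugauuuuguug
miR-338-5p (Mir338): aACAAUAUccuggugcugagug
These strands carried 4 different seeds. No other of the 1738 mature entries in the table had any of the 4 seeds, so no further gene was added to the family on this ground.

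The hairpins show where reads could tell the miR-219 copies apart. In both Mir219a hairpins, capitals mark the longest run they share, and in the Mir338 hairpin they mark miR-338-3p. Mir219a-1 lies at chr17:34024983-34025092, Mir219a-2 at chr2:29845631-29845727 and Mir338 at chr11:120014765-120014862, each on the minus strand of GRCm38.
Mir219a-1: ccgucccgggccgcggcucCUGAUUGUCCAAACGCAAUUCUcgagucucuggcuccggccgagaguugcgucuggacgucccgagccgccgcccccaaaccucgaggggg
Mir219a-2: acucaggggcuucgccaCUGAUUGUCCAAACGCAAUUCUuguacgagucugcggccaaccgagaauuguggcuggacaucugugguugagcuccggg
Mir338: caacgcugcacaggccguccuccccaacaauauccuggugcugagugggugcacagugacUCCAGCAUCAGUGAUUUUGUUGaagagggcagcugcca
The shared run was 22 bases long and held the whole of miR-219a-5p, which is 21 bases. Of the windows of 21 bases, 2 of 90 in Mir219a-1 and 2 of 77 in Mir219a-2 occurred in another of the 1005 hairpins of the table, and at 23 bases 0 of 88 and 0 of 75 did. For Mir338 the count was 0 of 81 even at 18 bases. A read at several positions was counted for no gene, so an exact miR-219a-5p read of 21 bases could enter neither copy. The counts of the Mir219a genes therefore describe reads that reach past the shared run or lie elsewhere in the hairpin, such as on the 3′ arm. The deposited gene counts do not separate the arms. Reads at several positions numbered 1922391 in replicate 1 and 2353481 in replicate 2, and how many of them were miR-219a-5p was not analysed here.

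**Figure D1:**
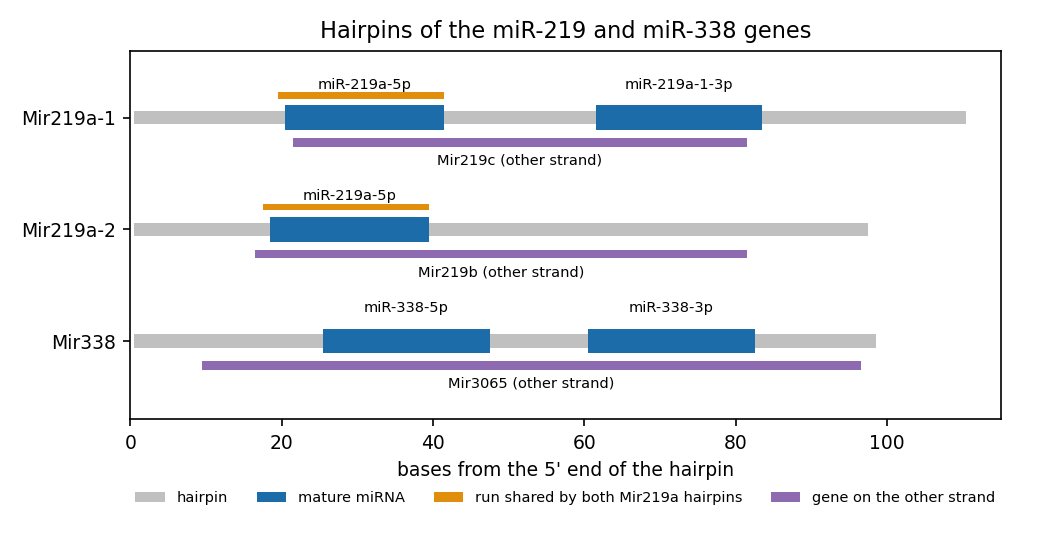
Hairpins of Mir219a-1, Mir219a-2 and Mir338 drawn to scale, in bases from the 5′ end (x axis), with the mature miRNAs listed in RefSeq (blue), the 22-base run common to both Mir219a hairpins (orange) and the miRNA gene annotated on the other strand (purple). miR-219a-5p lies wholly inside the common run, while miR-219a-1-3p and both miR-338 strands lie outside any shared run.

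The 3 loci differ in their surroundings. The hairpin of Mir219a-1 is 110 bases long with 69.1% G and C, and 88 of these bases overlap an exon of the long noncoding gene Gm26940 on the same strand. Its nearest protein-coding genes were Ring1, a Polycomb gene, at a distance of 303 bases, and H2-Ke6 at 941 bases. Mir219a-2 is 97 bases long with 55.7% G and C, lies in no other annotated gene of its strand, and has Urm1 as its nearest protein-coding gene at 629 bases. Mir338 is 98 bases long with 56.1% G and C and lies in an intron of Aatk, a kinase gene expressed in the nervous system, on the same strand. Each hairpin has another miRNA gene annotated opposite to it, Mir219c for Mir219a-1, Mir219b for Mir219a-2 and Mir3065 for Mir338. None of these 3 had a row in the count tables.

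The libraries held 3172235 and 3671915 sense-strand counts on miRNA genes, of 5941830 and 7074029 reads. A level is given as counts per 1000000 of these sense counts (CPM), so that a gene without reads could still lie as high as 0.946 CPM (replicate 1) or 0.817 CPM (replicate 2). Over the 329 genes with at least 10 counts in both, chi-square per degree of freedom was 318, so their counts were not those of 1 library deposited under 2 names. No molecular identifiers are stated, so intervals and limits cover counting error only. Neuronal and neural progenitor markers were present, led by Mir137 at 9457 ± 193 CPM (SD, n = 2) and Mir135b at 4762 ± 352 CPM. The lowest genes of these lists were Mir124a-1, Mir124a-2 and Mir124a-3 at means of 6.44, 2.40 and 1.78 CPM and Mir9-2 at 1.33 CPM. The other genes of both lists had means of 42.3 CPM or more. Whether reads at several positions, counted for no gene, lowered any of these levels was not tested. Protein-coding oligodendrocyte markers were not analysed here, so the presence of the cells themselves was not checked.

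Mir219a-2 carried most of the reads counted for these genes. It had 7533 counts in replicate 1 and 7669 in replicate 2. That is 2375 CPM (exact 95% interval 2321 to 2429) and 2089 CPM (2042 to 2136), a mean of 2232 ± 202 CPM (SD, n = 2). The level was in the same range in both libraries and ranked 46th of 1973 genes in replicate 1 and 61st in replicate 2. Mir338 had 568 counts in replicate 1 and 1197 in replicate 2, or 179 CPM (165 to 194) and 326 CPM (308 to 345). Its mean was 253 ± 104 CPM (SD, n = 2), and replicate 2 was the high library. It ranked 156th and 133rd. Mir219a-1 had 383 and 463 counts, or 121 CPM (109 to 133) and 126 CPM (115 to 138), with a mean of 123 ± 3.79 CPM (SD, n = 2). The libraries nearly coincided for this gene, which ranked 175th and 182nd. In bulk tissue, fewer cells of a type and less RNA per cell cannot be told apart.

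**Figure D2:**
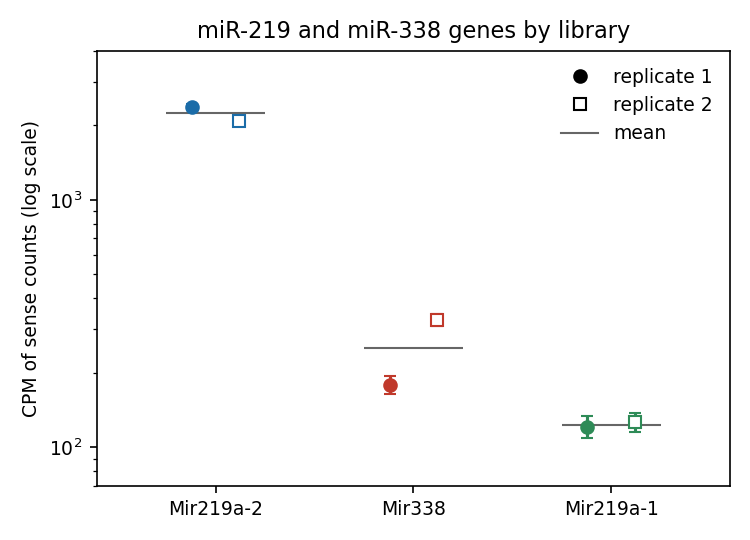
Level of each gene in each library, in CPM of sense counts on a log axis, with exact 95% intervals (bars, smaller than the symbol where not seen) and the mean of both libraries (line). Mir219a-2 stood near 2232 CPM in both libraries, Mir338 at 179 and 326 CPM, and Mir219a-1 at 121 and 126 CPM.

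Together the 3 genes held 8484 and 9329 counts, or 0.267% and 0.254% of all sense counts, a mean of 0.261% ± 0.00946 (SD, n = 2). Mir219a-2 supplied 88.8% of this sum in replicate 1 and 82.2% in replicate 2. Mir338 supplied 6.69% and 12.8%, and Mir219a-1 4.51% and 4.96%. Exact miR-219a-5p reads are in neither Mir219a count, so the sum and its split leave them out. The summed share thus moved little between the libraries, while the part of it due to Mir338 did not stay the same.

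The order of the genes by count was Mir219a-2, Mir338, Mir219a-1 in both libraries, and no neighbours in it overlapped over the libraries. Mature miRNAs are read end to end, so counts per gene were compared, and the hairpins differ little in length. Mir219a-2 had 19.7 times the counts of Mir219a-1 in replicate 1 (exact 95% interval 17.7 to 21.9) and 16.6 times in replicate 2 (15.1 to 18.2). Per base of hairpin the ratios were 22.3 and 18.8. The reads of exact miR-219a-5p that fit both copies are in neither count, so this is the ratio of uniquely placed reads and not of the copies' whole output. Mir219a-2 had 13.3 times the counts of Mir338 in replicate 1 (12.2 to 14.5) and 6.41 times in replicate 2 (6.03 to 6.81), or 13.4 and 6.47 times per base of hairpin. This ratio, which does not depend on library scaling, was 2.07-fold higher in replicate 1, and its intervals did not overlap. Mir338 had 1.48 times the counts of Mir219a-1 in replicate 1 (1.30 to 1.69) and 2.59 times in replicate 2 (2.32 to 2.88), or 1.66 and 2.90 times per base of hairpin. In a two-sided exact binomial test of each pair within each library, 6 comparisons in all, the Benjamini-Hochberg adjusted p was 2.16e-09 for Mir338 against Mir219a-1 in replicate 1 and 9.07e-75 in replicate 2. The other 4 comparisons gave p too small to be represented. These tests cover counting error within a library only. Both Mir219a counts lack exact miR-219a-5p reads, while for Mir338 0 of 81 windows of 18 bases occurred in another hairpin. The comparisons of Mir338 with the Mir219a genes are therefore also of uniquely placed reads. Whether Mir338 exceeds Mir219a-1 in whole output cannot be told from these counts.

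Between the libraries, the genes did not move as one. Mir219a-2 was 1.32-fold higher in replicate 1. Its log2 ratio, here always replicate 1 divided by replicate 2 after TMM scaling (trimmed mean of M-values), was 0.40, with a 95% interval of 0.35 to 0.44. Mir338 was 1.57-fold higher in replicate 2, with a log2 ratio of -0.65 (-0.80 to -0.51). Mir219a-1 had a log2 ratio of 0.15 (-0.05 to 0.35), an interval that includes 0. The summed counts of all 3 gave 0.29 (0.24 to 0.33), the direction of Mir219a-2.

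No member was called different, where a call needed an adjusted p below 0.05 in a two-sided exact binomial test over all 360 tested genes and at least a 2-fold ratio. Of all genes tested, 37 were called, or 10.3%, with 14 (3.89%) higher in replicate 1 and 23 (6.39%) higher in replicate 2. Scaling by total counts split the calls into 8 and 35, scaling by the neuronal list into 5 and 39 and scaling by the neural progenitor list into 5 and 41. The adjusted p alone was 1.13e-63 for Mir219a-2, 6.18e-19 for Mir338 and 0.203 for Mir219a-1. So 2 of the 3 passed on p alone, 1 in each direction, as did 56.7% of all genes tested, 29.2% higher in replicate 1 and 27.5% higher in replicate 2. Each dam gave 1 library, so the test sets library against library, says nothing of litters and has no replicate check. With an assumed coefficient of variation of 0.2 between libraries, the adjusted p rose to 0.655 for Mir338 and to 1 for Mir219a-2. Over the alternatives run it ranged from 2.07e-41 to 0.655 for Mir338 and from 5.96e-69 to 1 for Mir219a-2.

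**Figure D3:**
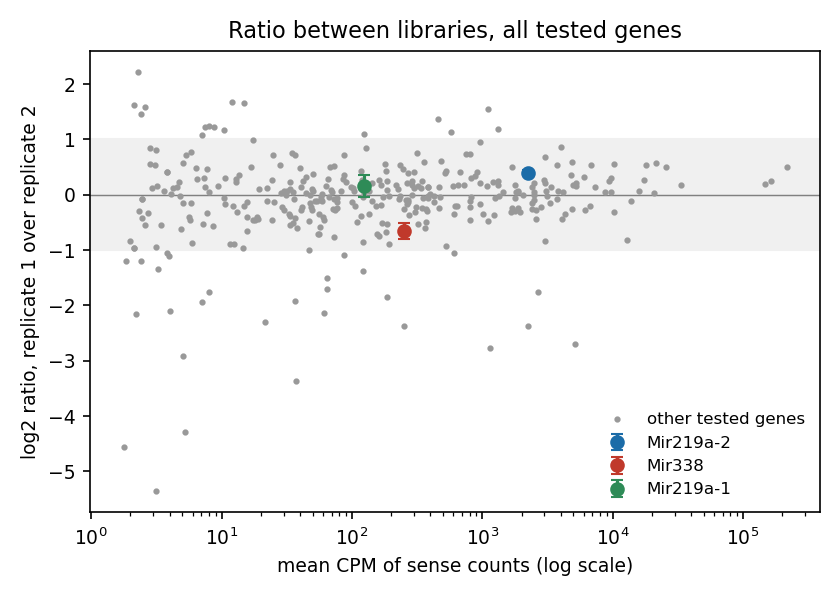
Log2 ratio of replicate 1 over replicate 2 (y axis, TMM scaling) against mean CPM (x axis, log scale) for the 360 tested genes (grey), with the 3 genes in colour and their exact 95% intervals. The grey band marks less than 2-fold. Mir219a-2 at 0.40, Mir338 at -0.65 and Mir219a-1 at 0.15 lie inside it.

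In the table as a whole, the median log2 ratio was -0.02 and the median absolute log2 ratio 0.29. Mir338 lay farther from 0 than most genes, since 22.2% had a larger absolute ratio. For Mir219a-2 that share was 40%, and for Mir219a-1 it was 72.5%. Scaling by total counts moved every log2 ratio by -0.21. It left Mir219a-2 above 0 at 0.19 and Mir338 below 0 at -0.86, and put Mir219a-1 at -0.06, so the direction of Mir219a-1 was not settled.

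Among markers of other tissues, 4 lists had summed log2 ratios below -0.5, the direction of Mir338. For the calls that follow, the shares over all genes tested were 3.89% higher in replicate 1 and 6.39% higher in replicate 2. The 3 sensory genes were Mir182 with 1212 and 9159 CPM, Mir183 with 640 and 3859 CPM and Mir96 with 258 and 2032 CPM. Together they took 0.211% of sense counts in replicate 1 and 1.50% in replicate 2. Of these genes, 3 of 3 were called higher in replicate 2, but they form a cluster and are not independent of each other. The mesenchymal list, with Mir143, Mir214 and Mir145a as its highest genes, took 0.120% and 0.489%, and 5 of 5 tested genes were called higher in replicate 2. For Mir143, known from smooth muscle, the levels were 1089 and 4283 CPM. The endothelial gene Mir126a took 0.844% and 1.73%, with a log2 ratio of -0.82, short of a call. The blood list took 0.0149% and 0.0275%, with 1 of 4 called higher in replicate 2, the myeloid gene Mir223 with 63 and 375 counts. Its other high genes, the red cell gene Mir451a and the lymphocyte gene Mir150, were not called. The muscle list took 0.00454% and 0.00531%, nearly all of it from Mir206, and 2 of its 5 genes, Mir133a-1 and Mir133a-2, had no count in either library. The epithelial list, led by Mir203, Mir429 and Mir205, took 0.0407% and 0.0508%, and 1 of 5 tested genes, Mir200c, was called higher in replicate 1. The neuronal and neural progenitor lists had summed ratios of the sign of Mir219a-2, while the other oligodendrocyte lineage list, described further on, had -0.13. These lists are not separate. Among genes with a row, the lineage list shares Mir138-1 and Mir138-2 with the neuronal list, and Mir9-2 and Mir9-3 with the neural progenitor list. The neuronal list took 1.49% and 1.41% of sense counts, with a summed log2 ratio of 0.29 and 2 of 12 tested genes called higher in replicate 1, Mir128-1 and Mir128-2. Most of that sum was Mir137, with 30433 and 34225 counts. Of the 12 genes 7 had ratios above 0 and 5 below, among them Mir138-1, the third highest of the list, at -0.47. The neural progenitor list took 0.806% and 0.750%, with a summed log2 ratio of 0.32 and 0 of 3 called. The part of any of these in the ratio of Mir338 was not tested. Scaled by the summed counts of the neuronal list, a scaling added once the values were known, Mir338 had a log2 ratio of -0.94 and Mir219a-2 one of 0.11.

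**Figure D4:**
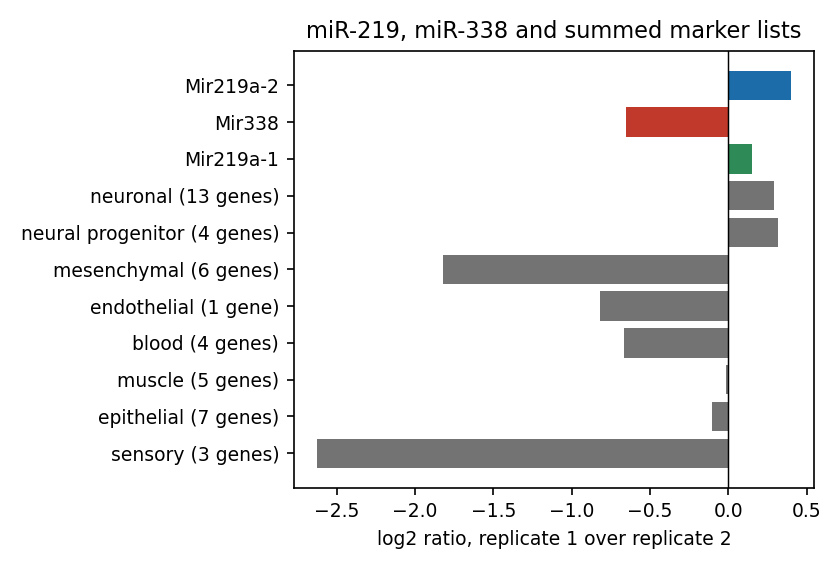
Log2 ratio of replicate 1 over replicate 2 (x axis, TMM scaling) for the 3 genes (coloured bars) and for the summed counts of each marker list (grey bars). Mir338 at -0.65 pointed the same way as the sensory list at -2.62, the mesenchymal list at -1.82 and Mir126a at -0.82, while Mir219a-2 at 0.40 pointed the same way as the neuronal list at 0.29.

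Reads on the other strand were few. Over all gene rows they made up 1.26% of reads in replicate 1 and 1.49% in replicate 2. Mir219a-2 had 0 of 7533 reads there in replicate 1, which allows a share of up to 0.0398%, and 1 of 7670 in replicate 2 (0.0130%, exact 95% interval 0.000330 to 0.0726). Mir338 had 0 of 568, which allows up to 0.528%, and 2 of 1199 (0.167%, 0.0202 to 0.601). These genes had almost no reads from the strand of Mir219b and Mir3065 at single positions. Mir219a-1 had 4 of 387 reads on the other strand (1.03%, 0.282 to 2.63) and 8 of 471 (1.70%, 0.736 to 3.32). These shares lay near that of the whole table, below it in replicate 1 and above it in replicate 2. The intervals of the libraries overlapped, and in replicate 1 the interval also overlapped that of Mir338, which reached up to 0.647%. That is the upper end of the exact 95% interval, while the 0.528% above is the limit of 3 counts. Of the 255 genes with at least 100 reads on either strand in both libraries, 36 (14.1%) had any other-strand read. In 14 of the 255, Mir219a-1 included, the share was at least as high as that of Mir219a-1 in both libraries. Its opposite gene, Mir219c, would give these products, shown with the seed in capitals because they are what the other strand of the locus encodes.
miR-219c-5p: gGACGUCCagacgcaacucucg
miR-219c-3p: cGAGAAUUgcguuuggacaauc
The counts do not tell whether the reads were these products.

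Other miRNAs known from the oligodendrocyte lineage set the levels in context. Of the list, 18 genes had a row and Mir9-1 was not analysed here. Several come in near-identical copies, whose levels are uncertain for the reason given for miR-219. Mir17, of a cluster that raises the number of precursors, had 8454 and 12138 CPM, above Mir219a-2 in both libraries. Its cluster mates Mir18, Mir19a, Mir20a, Mir19b-1 and Mir92-1 come from the same transcript and are not independent of it. Mir125a, whose 3p strand slows precursor maturation in rat, had 5486 and 4201 CPM. Mir23a, which favours myelin by repressing the lamin gene Lmnb1, had 2110 and 2726 CPM, close to Mir219a-2. Mir23a was the lower of the pair in replicate 1 and the higher in replicate 2.

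Below Mir219a-2 stood Mir138-1, of the miRNA that prolongs the early steps of differentiation, at 853 and 1372 CPM. Mir7b, of the family that promotes precursor formation, had 553 and 418 CPM. Mir32, linked to myelin upkeep, had 82.6 and 134 CPM, in the range of Mir219a-1, and Mir212, which delays maturation in rat, had 47.6 and 52.8 CPM. By mean, Mir338 lay between Mir7b and Mir32. Of the 17 genes tested, 0 were called different between the libraries, beside the 10.3% of the table. On adjusted p alone 13 passed, 5 higher in replicate 1 and 8 higher in replicate 2. Over all genes tested, 56.7% passed on p alone, 29.2% higher in replicate 1 and 27.5% higher in replicate 2. The median log2 ratio of the 17 genes was -0.16, beside -0.02 for all genes tested. Mir27a fell just short of 2-fold, with 90 and 242 counts and a log2 ratio of -0.9998 (95% interval -1.37 to -0.65). It was called in 6 of 8 alternatives, those being scaling by total counts, by the neuronal list or by the neural progenitor list, no filter, a filter of 100 counts and reads of either strand. So the count of 0 rests on a narrow margin.

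**Figure D5:**
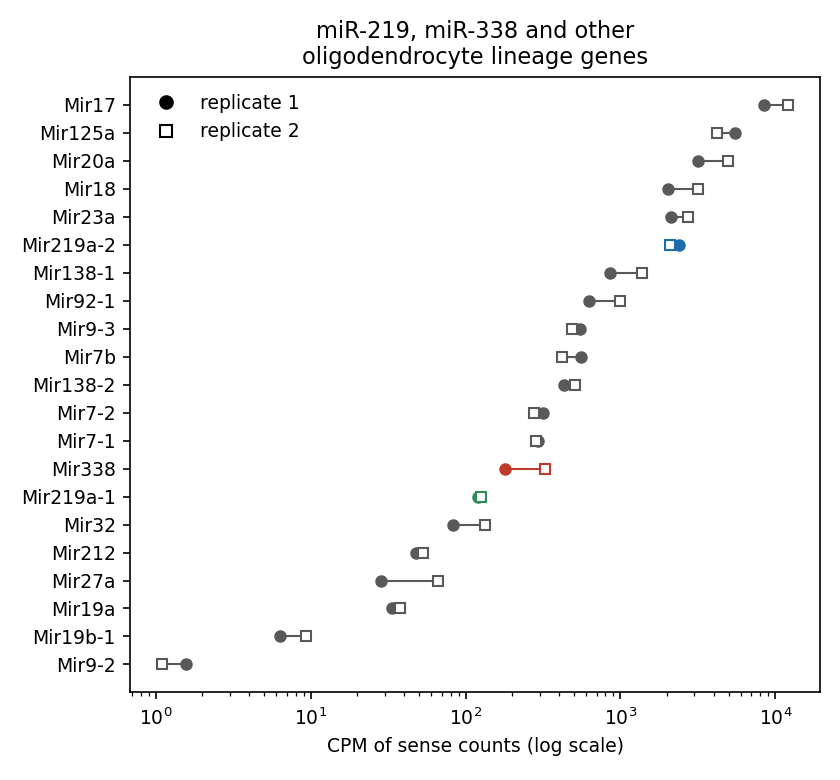
CPM of sense counts (x axis, log scale) in replicate 1 (filled circles) and replicate 2 (open squares) for Mir219a-2 (blue), Mir338 (red), Mir219a-1 (green) and 18 other miRNA genes known from the oligodendrocyte lineage, ordered by mean. By mean, Mir219a-2 lies next to Mir23a and Mir338 lies below Mir7-1 and Mir7-2. In replicate 2 Mir338, at 326 CPM, lies above Mir7-1 at 284 CPM and Mir7-2 at 277 CPM.

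The genes closest to each member in level were found by the distance between their log2(CPM + 1) values over the 2 libraries, among 329 genes with at least 10 counts in both. For Mir219a-2 they were Mir298, Mir92b and Mir15a, at distances of 0.23, 0.27 and 0.33. Mir92b, a neural progenitor miRNA gene, had 2499 and 2497 CPM. For Mir338 they were Mir540, Mir363 and Mir671, at 0.29, 0.30 and 0.39. All 3 had log2 ratios below 0, from -0.37 for Mir363 to -0.16 for Mir671. The distance uses the levels of both libraries, so the choice of neighbours itself favours a shared sign. For Mir219a-1 they were Mir1306, Mir592 and Mir331, at 0.08, 0.10 and 0.14. With 2 libraries this likeness is mostly one of level, and it is a description only.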

How the data were processed

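MicroRNA-seq of neural tube was deposited as 1 table of raw counts per gene and library. Per the text notes deposited with the libraries, the counts derive from alignments to mm10 with gene annotation M4. Aligner, adapter trimming and filtering: not given in the sources used here. The columns hold reads on either strand, the sense strand and the other strand, and 4 further rows, which hold reads without a gene, were left out of all totals and tests. Reads at several positions took 32.4% and 33.3% of all reads, unmapped reads 11.5% and 11.8%, and reads on no sense feature 2.75% and 3.01%.

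Symbols and positions came from GENCODE M21 (GRCm38, the assembly also called mm10), which matched 1894 of 1973 identifiers. The annotation and count tables were read with Python 3.11.15, numpy 2.4.6 and pandas 2.3.3. CPM is the sense count per 1000000 sense counts. Genes reaching 10 counts in either library were scaled (TMM, edgeR 4.0.16, R 4.3.3) and tested by a two-sided exact binomial test in scipy 1.17.1, adjusted by Benjamini-Hochberg. Ratios used a prior count of 0.5. A quasi-likelihood fit had no residual degrees of freedom. Intervals are exact 95% binomial, and a count of 0 was given the limit of 3 counts. DESeq2 1.42.0 size factors, other filters, strands and denominators, and an assumed coefficient of variation were tried as alternatives. The test was checked on simulated data that held planted differences and counting error only. That check does not cover further variation between libraries.

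The genes and lists were chosen with earlier results of these data known. Genes named are the 3 members, the genes opposite them and the lineage list. Also named are the 3 nearest in level to each member and the 3 highest of each marker list. Mir124a-1, Mir124a-2, Mir124a-3, Mir128-2, Mir133a-1, Mir133a-2 and Mir200c were added after their values were seen. Sequences are RefSeq's on GRCm38.p6. No genome sequence was used, so shared stretches were searched among hairpins only. Nothing states whether the embryos' libraries were prepared separately. The p-values set the difference between these libraries against counting error only, and that difference may be technical. Figures were drawn with matplotlib 3.10.9.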

Additional observations from a re-analysis of the deposited data

Results flagged for a closer look

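Other-strand reads over Mir219a-1 exceeded the limit that a count of 0 allows, 3 counts, in a column that the levels do not use. There were 4 such reads in replicate 1 and 8 in replicate 2. They were 1.03% and 1.70% of the reads of the gene, near the 1.26% and 1.49% of other-strand reads over all gene rows. That share is pooled over reads. Among the 255 genes with at least 100 reads on either strand in both libraries, the median share was 0% in each library. In 14 of them, Mir219a-1 included, the share was at least as high as that of Mir219a-1 in both libraries. The cause was not tested.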

How the results depend on the processing

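Per 1000000 of all reads instead of sense counts, the levels were 65.0 for Mir219a-1, 1176 for Mir219a-2 and 132 for Mir338, and the summed share was 0.137%. Without the most abundant gene in the total, they were 157 CPM for Mir219a-1, 2854 CPM for Mir219a-2 and 0.333% for the sum. Both follow from the changed denominator. Each library alone gave 121 to 126 CPM for Mir219a-1, 2089 to 2375 CPM for Mir219a-2, 179 to 326 CPM for Mir338 and a ratio of Mir219a-2 to Mir338 of 6.41 to 13.3. The log2 ratio of Mir219a-1 turned to -0.0626 with scaling by total counts, to -0.14 by the neuronal list and to -0.17 by the neural progenitor list, the last 2 chosen after seeing the data. Mir219a-2 and Mir338 kept their direction and stayed uncalled in all 8 alternatives. The 37 genes called over the table became 21 with a filter of 100 counts, which tests fewer genes, and 21 with an assumed coefficient of variation of 0.2. With scaling by total counts the split of higher in replicate 1 and higher in replicate 2 went from 14 and 23 to 8 and 35, with scaling by the neuronal list to 5 and 39, and with scaling by the neural progenitor list to 5 and 41. TMM factors were first taken over all genes and, after those results were seen, over the genes passing the filter. The first choice is kept as the setting with no filter, which also tests 678 genes, those with any count, in place of 360. It called 38 genes, 1 of them Mir27a in the oligodendrocyte lineage list, where the reported setting called 0 of that list. No call on the 3 genes differed. No paired analysis was possible because the libraries form 1 group.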
